A study of Mus musculus with 6 samples.

Results

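H3K27ac, an acetylation of histone H3 that marks active promoters and enhancers, was examined in adult mouse skeletal muscle at regions that lie far from any protein-coding gene start. These gene desert regions were chosen by a rule that used the mark itself. Overlapping or touching regions of the 2 H3K27ac lists were joined, and a joined region was kept when it held bases of both lists, was under 10 kb long, had its centre outside every protein-coding gene and lay more than 50 kb from the nearest protein-coding transcript start. The rule gave 4074 regions among 52531 joined regions, which is 11.9% of the 34378 joined regions that met the first 2 conditions. For comparison, 5379 of those regions lay between genes at 1 to 50 kb from a start, 15662 lay inside genes more than 1 kb from a start, and 9263 were promoter regions within 1 kb of a start.

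The chromatin came from nuclei of gastrocnemius and quadriceps muscles taken from wild-type mice at 2 months of age. There were 2 samples for H3K27ac, 2 for the bZIP transcription factor Maf and 2 inputs, with no treatment or mutant. Both samples of a pair are described as biological replicates, and the number of animals is not given. The lists give positions only, so read depth is unknown and no height of the mark can be compared. Maf replicate 1 holds 74 peaks and Maf replicate 2 holds 5467, so nearly all statements on Maf rest on replicate 2. The tissue was checked by promoter H3K27ac in both lists. All 20 skeletal muscle fiber genes examined had the mark, beside 55.1% of all protein-coding genes. So did 19 of 19 endothelial, 18 of 20 fibro-adipogenic and tendon, 10 of 12 macrophage and 8 of 10 satellite cell genes. The mark was also at 10 of 10 smooth muscle and pericyte genes and 5 of 9 Schwann cell genes (55.6%). It was at 0 of 12 liver and 0 of 12 neuron genes. Marker genes of several cell types were thus marked, and fewer cells of a type and a weaker mark per cell cannot be told apart in these bulk lists.

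Enhancers are stretches of DNA where transcription factors bind and raise transcription of a gene that can lie far away along the chromosome. Long gaps between genes, called gene deserts, are often found beside genes for transcription factors and signalling proteins of development, and some hold enhancers that act over long distances. In muscle, E-boxes are bound by the myogenic bHLH factors, Mef2 sites by the Mef2 factors, and the Maf half-site TGCTGAC by Maf proteins.

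The sequences at Maf peaks inside gene desert regions are shown first, because they are the sites where a second protein was mapped in these regions independently of the rule. Each run is 200 bp around the centre of a Maf peak, on the plus strand of GRCm38. Capitals mark every TGCTGAC on either strand, where it reads GTCAGCA on the minus strand, the myogenic E-box CAGCTG, the AP-1 site TGANTCA of Fos and Jun factors, and the glucocorticoid response element, a longer motif of glucocorticoid and androgen receptors given here by name. The region nearest to Ets2 holds the peak that stands highest in the Maf replicate 2 list among all gene desert regions, at position 16, and has 3 TGCTGAC sites and 1 E-box.
Ets2, chr16:95763316-95763515: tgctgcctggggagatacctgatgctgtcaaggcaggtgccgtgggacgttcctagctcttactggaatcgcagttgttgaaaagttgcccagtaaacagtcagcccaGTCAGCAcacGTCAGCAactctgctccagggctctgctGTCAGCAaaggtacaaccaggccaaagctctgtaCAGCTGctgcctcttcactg
In the region nearest to Emp1, the first TGCTGAC runs into an AP-1 site so that both share bases, and a second TGCTGAC lies on the other strand.
Emp1, chr6:135559472-135559671: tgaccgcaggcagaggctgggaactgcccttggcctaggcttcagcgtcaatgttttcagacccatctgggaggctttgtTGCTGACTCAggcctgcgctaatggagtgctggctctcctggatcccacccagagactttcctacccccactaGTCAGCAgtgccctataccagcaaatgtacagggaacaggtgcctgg
The regions nearest to Myom2, Clint1, B3gat1 and Zmiz1 have a peak in both Maf lists together with TGCTGAC, and the peak of replicate 1 is shown.
Myom2, chr8:15152193-15152392: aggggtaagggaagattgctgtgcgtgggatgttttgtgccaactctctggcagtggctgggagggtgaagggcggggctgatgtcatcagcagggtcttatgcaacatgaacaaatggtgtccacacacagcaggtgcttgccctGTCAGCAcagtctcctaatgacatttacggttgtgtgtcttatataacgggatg
Clint1, chr11:45545830-45546029: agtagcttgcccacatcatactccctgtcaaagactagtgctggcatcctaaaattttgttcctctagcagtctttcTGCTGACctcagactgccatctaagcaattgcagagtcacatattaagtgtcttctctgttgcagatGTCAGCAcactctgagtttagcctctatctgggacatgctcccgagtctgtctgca
B3gat1, chr9:26625600-26625799: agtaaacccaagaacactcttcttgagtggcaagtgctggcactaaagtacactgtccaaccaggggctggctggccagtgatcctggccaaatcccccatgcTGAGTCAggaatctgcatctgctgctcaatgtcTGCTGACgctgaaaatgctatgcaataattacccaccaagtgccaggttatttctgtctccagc
Zmiz1, chr14:25371746-25371945: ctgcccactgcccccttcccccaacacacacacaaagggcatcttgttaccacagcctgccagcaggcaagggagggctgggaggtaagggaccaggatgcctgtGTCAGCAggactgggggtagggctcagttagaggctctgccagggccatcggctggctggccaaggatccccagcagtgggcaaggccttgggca
The region nearest to St3gal5 combines a glucocorticoid response element, TGCTGAC and an AP-1 site.
St3gal5, chr6:72162251-72162450: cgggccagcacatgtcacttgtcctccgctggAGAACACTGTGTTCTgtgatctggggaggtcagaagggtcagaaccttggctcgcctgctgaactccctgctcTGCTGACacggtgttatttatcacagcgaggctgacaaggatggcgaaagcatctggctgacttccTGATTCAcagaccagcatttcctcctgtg
The region nearest to Igf2 has 2 E-boxes and no TGCTGAC, and the region nearest to Tln2, whose peak is in both Maf lists, holds none of these motifs in the window.
Igf2, chr7:142600454-142600653: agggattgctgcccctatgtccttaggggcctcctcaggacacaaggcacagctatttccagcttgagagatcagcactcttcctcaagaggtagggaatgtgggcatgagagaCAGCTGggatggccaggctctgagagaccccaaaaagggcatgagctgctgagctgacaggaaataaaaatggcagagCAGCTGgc
Tln2, chr9:67187725-67187924: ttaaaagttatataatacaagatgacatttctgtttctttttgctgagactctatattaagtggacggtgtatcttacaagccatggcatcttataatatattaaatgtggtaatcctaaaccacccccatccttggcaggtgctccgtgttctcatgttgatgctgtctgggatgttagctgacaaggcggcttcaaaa

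The 4074 gene desert regions were compact and were called with like length in both samples. Their median joined length was 1747 bp, with a middle range of 1246 to 2454 bp, and the median number of bases was 1548 in replicate 1 and 1534 in replicate 2. Across regions, log length in the 2 lists had a Pearson correlation of 0.856, given as a description because both lists come from the same tissue and the rule required both. A single interval in each list made up 97.2% of the regions, and the bases shared by both lists were 79.4% of the joined length at the median. The order of the deposited H3K27ac lists also went together, with a Spearman rho of 0.94 between the positions of these regions in the 2 lists. The regions stood near the middle of the lists, at median percentiles of 52.1 and 52.5 counted from the top, and promoter regions stood at 23.8 and 23.5. The order followed region length (rho of -0.859 in replicate 1), and the lists do not state what they are sorted by.

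**Figure D1:**
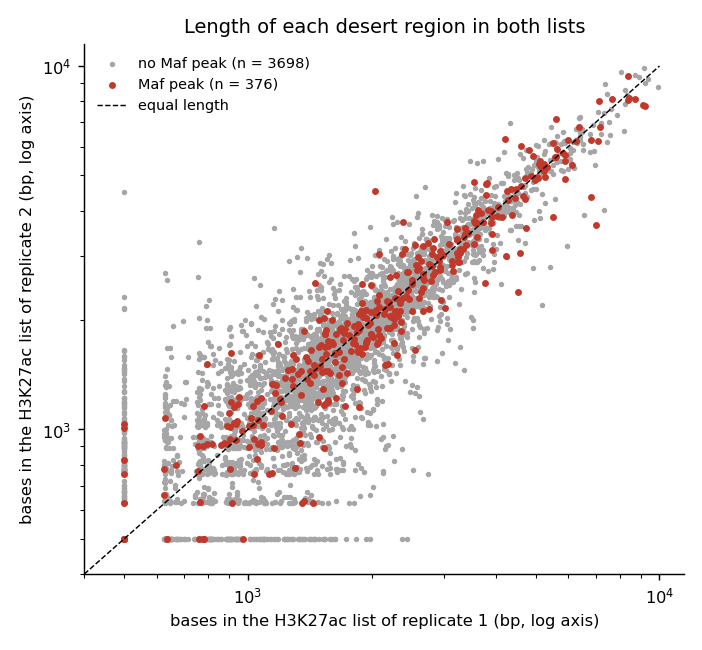
Bases of each gene desert region in the H3K27ac list of replicate 1 (horizontal, log axis) and replicate 2 (vertical, log axis), with the 376 regions that hold a Maf peak in red and the other 3698 in grey. Points lie along the dashed line of equal length, and the columns and rows of points at the lower end come from the shortest intervals of each list.

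The longest of these regions lie near genes of several functions. The longest, nearest to Cep85l, covered 9921 bp in replicate 1 and 8748 bp in replicate 2. A region of 9734 bp lay 53.6 kb from Dcn, which encodes the matrix proteoglycan decorin of fibroblasts, and had 8062 and 9620 bp in the 2 lists. A region of 9129 bp lay 138 kb from Sgk1, a serum- and glucocorticoid-induced kinase, and had 9129 and 7831 bp. These regions were broad in both lists. Of the 10 longest, those nearest to Ppp2r5a, Hnrnpll and Sgk1 held a Maf peak. The share with a Maf peak was 9.23% among all gene desert regions and 17.3% among those of 2829 to 9985 bp. At the length limit, the region nearest to Cep85l was the last one kept, and a region of 10150 bp near Svil was the first left out. At the distance limit, a region 50003 bp from Ccnl1 was kept and a region 49990 bp from P4ha2 was not.

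Gene desert regions were sparse along the genome. The space outside protein-coding genes and over 50 kb from their starts made up 1083 Mb, or 40.9% of the bases on chromosomes 1 to 19, X and Y, and held 3.76 regions per Mb. The intergenic space at 1 to 50 kb held 10.6 regions per Mb. Among chromosomes the density went from 7.08 per Mb on chromosome 17 and 6.28 on chromosome 13 to 1.92 on X, and no region was found on Y. Before the requirement for both lists, 6715 joined regions lay in the gene deserts, of which 61.1% were in both lists. The share was 60.2% for distal regions inside genes, 63.7% between genes within 50 kb and 92.1% for promoter regions. Of the gene desert regions under 10 kb, 1389 were in replicate 1 alone and 1223 in replicate 2 alone. The regions were poor in repeats, with 15.3% of bases soft-masked at the median, while 43% of all bases in the gene desert space were soft-masked. Other H3K27ac regions were alike, with medians of 15% for all kept regions, 16% inside genes and 19.4% between genes within 50 kb.

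The regions lay in 1277 gaps between genes, of which 543 held a single one. Of the 2841 gaps over 100 kb, 1084 held at least 1. The 263 gaps with at least 5 regions held 56% of all gene desert regions, and the 260 of them over 100 kb made up 12.4% of the length of all such gaps. How far this departs from an even spread was not tested. The fullest was the gap between Cd83 and Jarid2 on chromosome 13, with 29 regions over 926 kb. Jarid2 encodes a component of the Polycomb repressive complex and is known for a role in heart development. The gap between Rad51b and Zfp36l1 on chromosome 12 was denser, with 25 regions over 293 kb. Zfp36l1, an RNA-binding protein that speeds mRNA decay, and its relative Zfp36l2 both stood beside such a gap, since the gap between Haao and Zfp36l2 on chromosome 17 held 18 regions over 336 kb. The gap between Zeb2, a zinc finger repressor, and Acvr2a, a receptor for activin and myostatin, held 24 regions over 3697 kb.

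Of the other gaps among the 12 fullest, the gap between Irf2bp2 and Tomm20 held 23 regions, that between Gas1, a cell surface protein of Hedgehog signalling, and Dapk1 held 22, and that between H2al1j and Bcor on the X chromosome held 22. The gap between Trib2 and Lpin1, a phosphatidate phosphatase of lipid synthesis, held 21, as did the gap between Ubash3b and Sorl1. The remaining 4 were Rps24 to Zmiz1 with 20, Dact1 to Daam1 with 19, Gm12728 to Usp24 with 19, and Haao to Zfp36l2 named above. Of the 263 regions in these 12 gaps, 18 held a Maf peak (6.84%), beside 376 of all 4074 gene desert regions (9.23%). By gap it was 4 of 21 between Trib2 and Lpin1, 3 of 25 between Rad51b and Zfp36l1, 3 of 23 between Irf2bp2 and Tomm20, 3 of 22 between Gas1 and Dapk1 and 2 of 22 between H2al1j and Bcor. It was 1 region in the gaps of Cd83, Rps24 and Gm12728 and 0 in those of Zeb2, Ubash3b, Dact1 and Haao. Other Maf peaks lay in these gaps outside the gene desert regions, as in the gap between Zeb2 and Acvr2a.

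**Figure D2:**
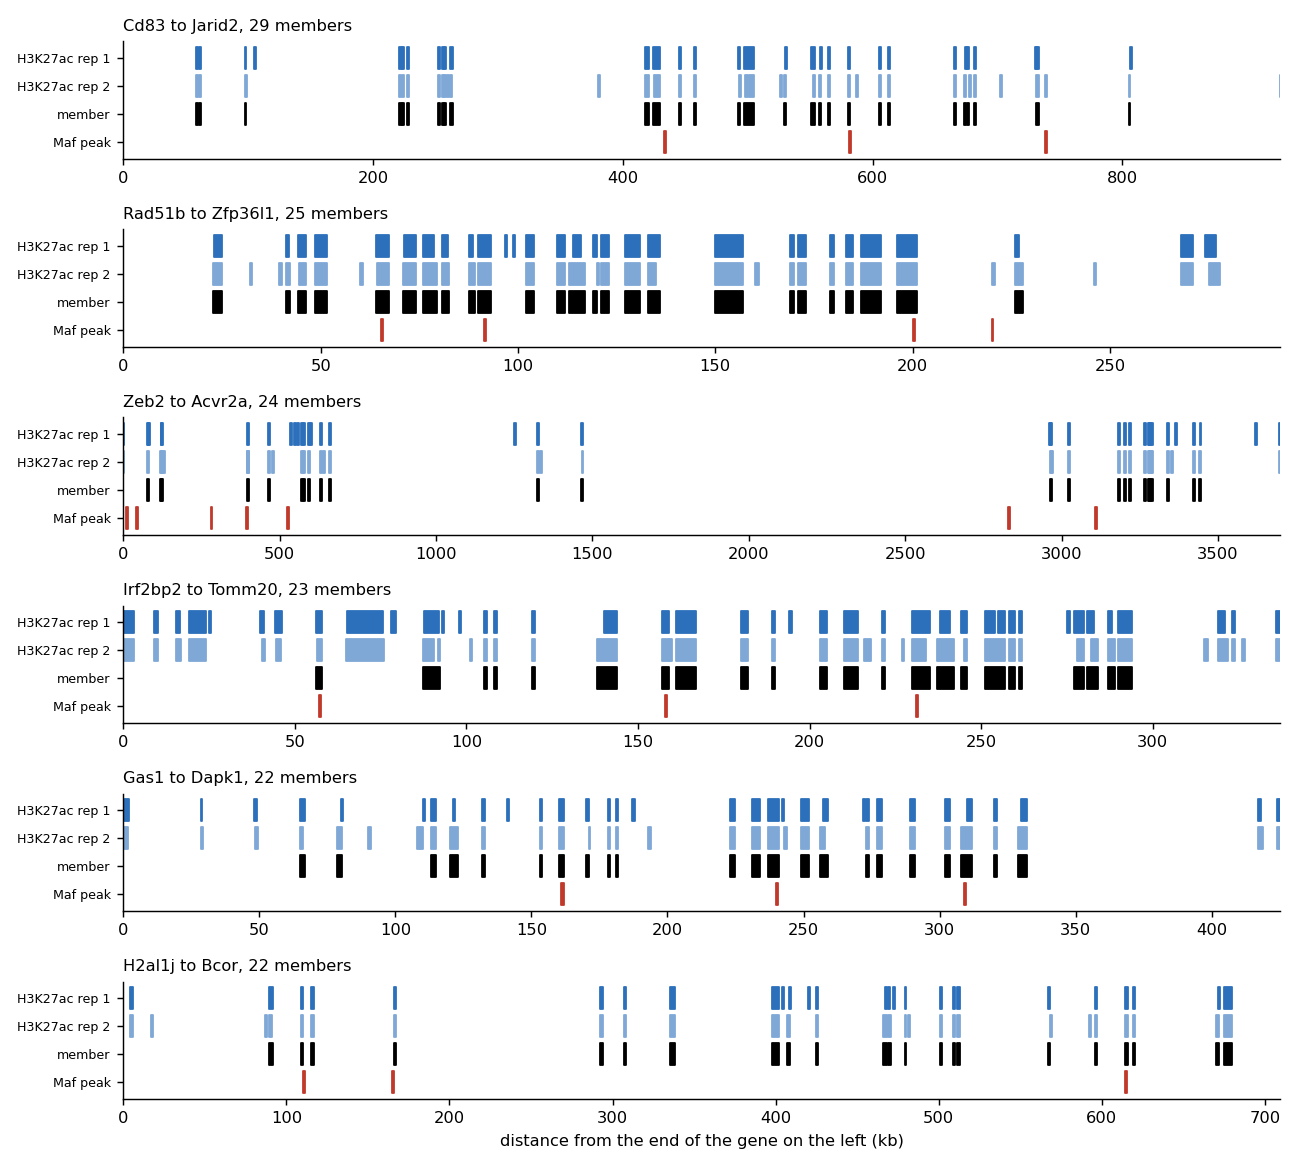
The 6 gaps with the most gene desert regions, drawn to scale from the end of the gene on the left (kb), with H3K27ac regions of replicate 1 and replicate 2 in blue, the kept regions in black and Maf peaks of either list in red. Bars narrower than the line width are drawn slightly wider than they are. In the gap between Zeb2 and Acvr2a all but 2 regions sit toward both ends, and between Rad51b and Zfp36l1 they follow each other closely.

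When gene desert regions within 10 kb of each other were counted as a string, 56.7% of them stood alone and 21.5% belonged to strings of 3 or more. The string with the most regions lay between Rad51b and Zfp36l1, where 13 regions filled 50.6% of 71.6 kb. A string of 11 regions over 83.1 kb lay between Unc93a2 and Fndc1, and one of 7 over 46.5 kb between Bcl6 and Lpp, all named after their values were seen. The last filled 57.6% of its span, and 2 of its regions held a Maf peak.

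To describe which genes border these regions, the 2 protein-coding genes at the ends of each gap were compared with 13 lists of genes. Of all 21911 protein-coding genes, 10.5% flanked a gap that held a gene desert region. Transcription factors of fiber type and myogenesis did so for 20 of 40 genes, limb patterning and homeobox factors for 18 of 31, growth and signalling factors for 18 of 26, and fibro-adipogenic and tendon genes for 13 of 20. Only 1 of 20 skeletal muscle fiber genes did, namely Neb, which encodes the thin filament protein nebulin. The share of genes that flank any gap over 100 kb, whether marked or not, moved with these counts. It was 20.8% for all genes, 55% for the fiber type and myogenic factors, 71% for the limb factors, 88.5% for the growth factors, 80% for the fibro-adipogenic and tendon genes and 0% for the fiber genes. The part of gap length in the difference between lists was not tested.

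Among the transcription factors, Nfib, an Nfi factor, flanked 19 gene desert regions, Bcl6, a zinc finger repressor, 16, Mef2c 14, Maf itself 14, Foxo1, the FoxO factor of muscle protein breakdown, 13, Eya4 8, Sox6, a repressor of slow fiber genes, 7 and Nr4a3, an orphan nuclear receptor induced by exercise, 7. Each of these genes had promoter H3K27ac in both lists. Each was the nearest gene for only part of the regions it flanked. This part went from 10 of 14 for Mef2c and for Maf to 2 of 7 for Sox6 and 1 of 7 for Nr4a3. Of the other factors, Tbx15, a T-box factor of glycolytic fibers, flanked 5. The myogenic factors Myod1, Myog, Myf5 and Myf6 flanked none. Among limb and homeobox factors, Tbx3 flanked 14, Tshz3 10, and Meis1 and Nr2f2 7 each, while Pitx1, which specifies the hindlimb, flanked 6 without promoter H3K27ac in both lists.

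Secreted factors and hormone responses were also bordered by these regions. Vegfa, which drives capillary growth, and Tgfb2 each flanked 10, Fgf9 and Gdf10 7 each, and Fst, the inhibitor of myostatin, 3. Of 19 genes of the hormone and stress response, 9 flanked a gene desert region, including Lpin1 with 21, Irs2, an adaptor of the insulin receptor, with 13, and Nr3c1, the glucocorticoid receptor, with 7. Lpin1 was the nearest gene for 5 of its 21, Irs2 for 11 of its 13 and Nr3c1 for 4 of its 7. The markers of other cells had lower counts with the exception of fibroblast and tendon genes, where Osr1 and Runx1 flanked 13 each, Sox9 10 and Dcn 9. Tcf4, which also stood in that list with 10 regions, encodes the bHLH factor E2-2 and is not the gene of the connective tissue marker of that name, and without it 12 of 19 genes of the list flanked a gene desert region. Endothelial genes flanked such a region in 7 of 19 cases, satellite cell genes in 4 of 10, smooth muscle genes in 2 of 10, neuron genes in 2 of 12, liver genes in 1 of 12, macrophage genes in 1 of 12 and Schwann cell genes in 0 of 9. Since the tissue is mixed, in which cells a given region was marked was not tested.

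**Figure D3:**
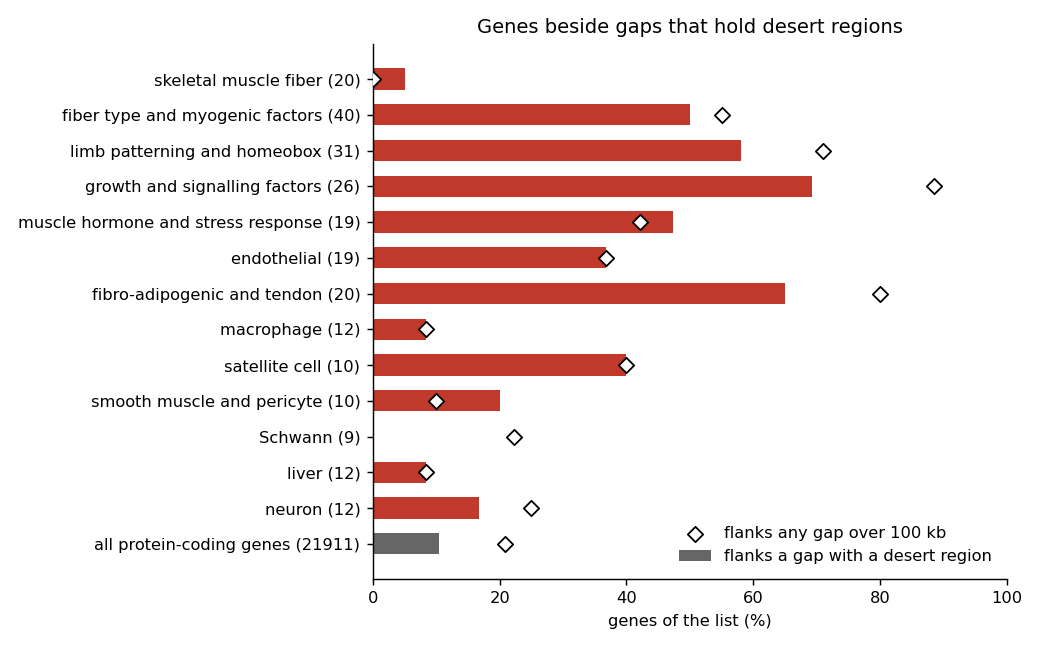
Percentage of the genes of each list, with the number of genes in brackets, that flank a gap with a gene desert region (bars) or any gap over 100 kb (diamonds). Bars for growth factors (69.2%), fibro-adipogenic and tendon genes (65%) and limb factors (58.1%) are the longest, and diamonds lie high for the same lists.

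The genes nearest to these regions numbered 1608, and 73.5% of them had promoter H3K27ac in both lists, against 55.1% of all protein-coding genes. The nearest gene had it for 77.3% of the gene desert regions. For 94.8% of the gene desert regions at least 1 of the 2 flanking genes had it, beside 68.7% of all 2841 gaps over 100 kb. The first share counts regions, so that gaps with many regions weigh more, and the second counts each gap once. The nearest gene need not be the target of a region, and these shares are given as a description.

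Of the regions that the rule counts as gene desert, 3 overlapped immunoglobulin or T cell receptor genes, which the annotation does not class as protein-coding. They were named after their values were seen. One of 6339 bp on chromosome 12 overlapped Ighm and Ighj4 of the immunoglobulin heavy chain, the antibody gene of B cells, and had 5895 and 6228 bp in the 2 lists. The other 2, of 1482 and 3009 bp, overlapped joining segments of the T cell receptor alpha locus near Dad1. The macrophage and leukocyte marker Ptprc had promoter H3K27ac in both lists, and whether blood cells carried the mark at these loci was not tested.

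Annotated noncoding transcript starts lay near some of these regions. They are the starts of all genes not classed as protein-coding, pseudogenes included, and whether they were transcribed here was not tested. A noncoding transcript start lay within 1 kb of the centre of 309 of the 4074 regions (7.58%, 95% exact interval 6.79 to 8.44%), against 7.30% of all 34378 kept regions. Between genes within 50 kb it was 446 of 5379 (8.29%), and the difference did not pass the test (odds ratio 0.908, 95% interval 0.778 to 1.06, adjusted p = 0.551, Fisher's exact test over regions). Beyond 100 kb the share was lower, at 153 of 2334 regions, and passed it (odds ratio 0.776, adjusted p = 0.0236, Fisher's exact test). Long intergenic noncoding RNAs made up 191 of the 309. A noncoding start lay near 27 of the 376 regions with a Maf peak (7.18%) and 282 of the 3698 without one (7.63%), with no test. The 27 included the regions nearest to St3gal5 with Gm38832, Akr1e1 with Gm5444, Sgk1 with Gm29323, Klf10 with Gm26863 and Mef2a with Gm33926. Of annotated microRNA genes, 7 lay within 1 kb of the centre of a region, including Mir30a at 837 bp and Mir7214 at 299 bp. The region at Mir30a shared only 7.69% of its length between both lists.

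CpG-island-like sequence, taken as over 50% GC and an observed to expected CpG ratio over 0.6 in the central 500 bp, was found in 99 of the 4074 gene desert regions (2.43%, 95% interval 1.98 to 2.95%), against 20.3% of all kept regions. Promoter regions made up 6330 of the 6976 kept regions with such sequence. Distal regions inside genes had it in 298 of 15662 cases (1.9%), a comparison that got no test. Between genes within 50 kb it was found in 249 of 5379 (4.63%), and the difference was larger than counting error (odds ratio 0.513, 95% interval 0.401 to 0.653, adjusted p = 5.43e-08, Fisher's exact test). CpG islands mark most promoters of widely expressed genes.

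Maf occupied gene desert regions about as often as other regions. Of the 4074 regions, 376 overlapped a Maf peak (9.23%, 95% exact interval 8.36 to 10.2%), beside 8.75% of all 34378 kept regions. Between genes within 50 kb it was 495 of 5379 (9.20%), and no difference passed the test (odds ratio 1.00, 95% interval 0.869 to 1.16, adjusted p = 1, Fisher's exact test). Inside genes it was 1389 of 15662 (8.87%), which also did not pass (odds ratio 1.04, 95% interval 0.925 to 1.18, adjusted p = 0.797, Fisher's exact test). Longer regions held a Maf peak more often, and regions inside genes were longer, with a median of 1941 bp. A region counted when it shared at least 1 bp with a peak, and Maf peaks per base of region were not compared. Within 5 bins of region length, gene desert regions held a Maf peak more often than regions inside genes (odds ratio 1.25, adjusted p = 0.00122, exact conditional test). The bins of that test were cut on the lengths of these 2 classes. In other bins, cut on the lengths of gene desert regions and regions between genes, the shares were 5.23% against 2.47% in the shortest and 17.3% against 15.9% in the longest. Against regions between genes, stratifying by length left the odds ratio at 1.04 (adjusted p = 0.729, exact conditional test). These intervals cover counting error over regions only, and regions are not replicates of an animal.

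**Figure D4:**
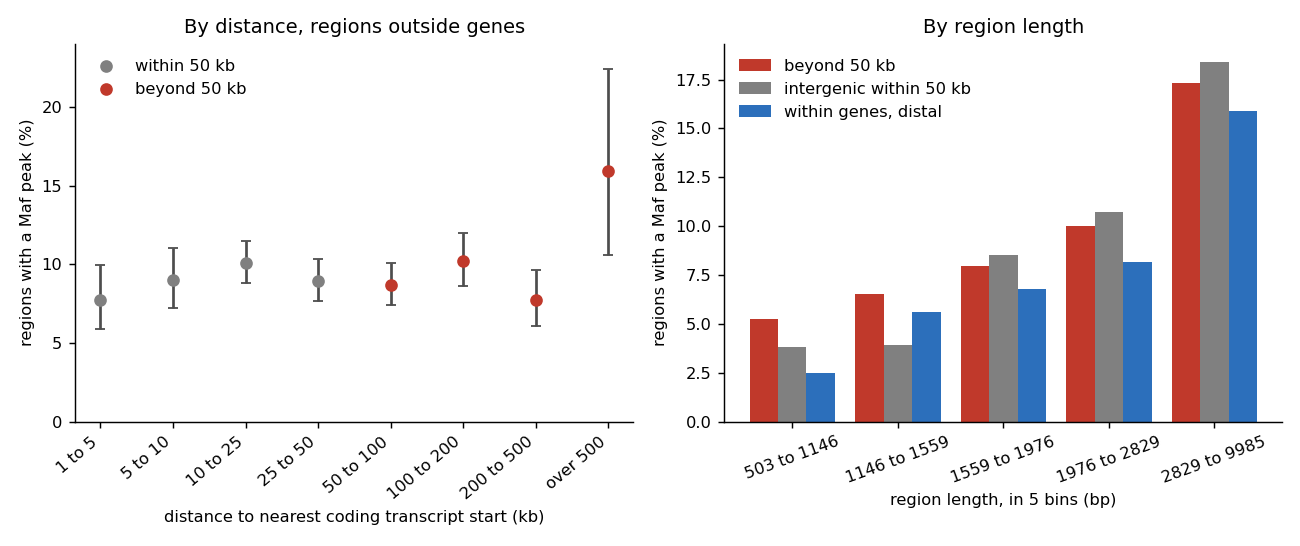
Percentage of H3K27ac regions with a Maf peak, on the left for regions outside genes by distance to the nearest protein-coding transcript start (kb, points with 95% exact binomial intervals, gene desert regions in red) and on the right by region length (bp) for gene desert regions, regions between genes within 50 kb and distal regions inside genes. The share lies between 7.71% and 10.2% up to 500 kb and grows with region length in all 3 classes.

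By distance, the share of gene desert regions with a Maf peak was 8.68% at 50 to 100 kb (151 of 1740), 10.2% at 100 to 200 kb (129 of 1262) and 7.71% at 200 to 500 kb (70 of 908). Beyond 500 kb it was 15.9% (26 of 164, 95% exact interval 10.6 to 22.4%). This last group was singled out after its value was seen and got no test. Its 26 regions were spread over 21 nearest genes, with 3 near Castor2 and 2 each near Efnb2, Myc and Tbl1xr1. The farthest gene desert region of all lay 2130 kb from Cntnap5b and had 955 bp in replicate 1 and 501 bp in replicate 2. The farthest with a Maf peak among the 10 most distant lay 1350 kb from Lrfn5, with 1567 and 1208 bp.

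Gene desert regions with a Maf peak were longer than those without, at medians of 2126 and 1713 bp, and stood higher in the H3K27ac lists, at median percentiles of 29.6 and 31.8 against 53.6 and 54.4. The midpoint of the Maf peak of replicate 2 lay 241 bp from the region centre at the median. Of 5485 joined Maf peaks, 871 lay in the gene desert space, 51.4% of these overlapped an H3K27ac region of either list, and 380 overlapped a gene desert region. The motif TGCTGAC was within 100 bp of the peak centre in 87 of 381 Maf peaks in gene desert regions (22.8%, 95% interval 18.7 to 27.4%). In regions between genes within 50 kb it was 116 of 512 (22.7%), and the shares did not differ beyond counting error (odds ratio 1.01, 95% interval 0.726 to 1.4, adjusted p = 1, Fisher's exact test).

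Of the gene desert regions, 7 (0.172%) had a peak of Maf replicate 1, beside 0.125% of all kept regions. The list of replicate 1 holds 74 peaks in all. Of the 7 regions, 6 also had a peak of replicate 2. The 7 lay nearest to Myom2, an M-band protein of the myomesin family, at 94.3 kb, Clint1 at 306 kb, B3gat1 at 108 kb, Insc at 154 kb, Tln2, a talin that links integrins to actin, at 138 kb, Ccdc50 at 296 kb and Zmiz1 at 87.7 kb. The region nearest to Insc lies in the gap beside Sox6. The peak near Tln2 stood at position 28 in replicate 1 and 45 in replicate 2, and its region covered 7675 and 8136 bp of the H3K27ac lists. The peak near Ccdc50 was in replicate 1 alone. TGCTGAC was present in 4 of the 7 windows of 200 bp, and the E-box CAGCTG in 0 of the 7.

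The 15 gene desert regions whose peaks stood highest in Maf replicate 2 were those nearest to Ets2, Hhipl2, Emp1, Tln2, Hdac2, Usf3, Hlx, B3gat1, Auh, Cand1, Insc, St3gal5, Igf2, Homer1 and Zmiz1. Of their windows, 7 held TGCTGAC and 6 held the E-box CAGCTG. Over all Maf peaks in gene desert regions, 22.8% held TGCTGAC in such a window. The E-box was not counted over all those peaks. It stood in 14.9% and 14.7% of all gene desert regions in the 2 bins of 200 bp at the region centre. These small counts got no test. The region nearest to Igf2, the fetal growth factor, lay 57.5 kb from its start, covered 6119 bp in H3K27ac replicate 1 and 5348 bp in replicate 2, and had its Maf peak at position 110. The region nearest to Ets2 was short, with 501 and 1010 bp.

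The number of regions with a Maf peak varied between the gaps beside transcription factors of fiber type and myogenesis, against 9.23% of all gene desert regions. Around the Maf gene itself, 10 regions lay in the gap toward Wwox and 4 in the gap toward Dynlrb2, and 5 of the 10 held a Maf peak, against 0 of the 4. They lay 56258 to 349072 bp from the Maf start. The region at 123353 bp covered 4729 and 3573 bp in the H3K27ac lists and had the highest Maf position of them, 181. Beside Bcl6, 5 of 16 regions held a Maf peak, beside Nr4a3 4 of 7 and beside Tbx15 3 of 5. Mef2c had 3 of 14, Sox6 2 of 7, Nfib 2 of 19, Eya4 1 of 8, Foxo1 1 of 13 and Foxo3 0 of 4. The counts are small and got no test.

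The sequence at the centre of gene desert regions was compared with the sequence 5 kb to either side, which the rule did not use. Of 20 motifs searched on both strands in 500 bp, 9 were more frequent at the centre, 1 was less frequent and 10 did not pass (exact McNemar test with Benjamini-Hochberg adjustment). The myogenic E-box CAGCTG was found in 1373 of the 4074 centres (33.7%, 95% interval 32.2 to 35.2%) and in 19.6% of windows beside them (adjusted p = 1.32e-42, exact McNemar test). The NF1 half-site TTGGCA of the Nfi factors was found in 32.2% against 23.6% (adjusted p = 5.69e-16), and the AP-1 site TGANTCA in 20.6% against 15.0% (adjusted p = 2.02e-10, exact McNemar test). TGCTGAC was found in 10.4% against 7.13% (adjusted p = 2.05e-06, exact McNemar test). It was present in 18.4% of regions with a Maf peak and 9.6% of those without.

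The other motifs that passed were less common or differed less. The glucocorticoid response element was found in 59 centres (1.45%, 95% interval 1.1 to 1.86%) and 0.405% of windows beside them (adjusted p = 4.66e-06, exact McNemar test). Regions between genes within 50 kb had it in 1.08% of centres and 0.363% of windows beside them, and all kept regions in 0.788% of centres. The Ets site was found in 0.957% against 0.258% (adjusted p = 1.76e-04, exact McNemar test). The Sp1 box GGGCGGG was found in 6.55% against 2.47% (adjusted p = 9.68e-18) and the Fox site TGTTTAC in 9.5% against 7.25% (adjusted p = 0.00468, both exact McNemar tests). The Mef2 site was found in 10.8% against 9.12% (adjusted p = 0.0267, exact McNemar test), a small difference that did not pass with regions over 100 kb, with windows 10 kb away or with the full annotation. The Gata site AGATAAG was less frequent at the centre, in 5.25% against 7.33% (adjusted p = 0.00439, exact McNemar test). With 200 bp windows the Ets site (3.56 times as frequent, adjusted p = 0.105) and the Gata site (0.698 times, adjusted p = 0.102) did not pass the exact McNemar test. The M-CAT site CATTCCA of Tead factors, at 9.6% and 8.28%, and the MEF3 site TCAGGTT, at 8.47% and 7.95%, did not pass. Nor did the clock E-box CACGTG, the Runx site TGTGGTT, the Sox site CCTTTGT, the homeobox core TAATTA, the CTCF core and the ERR, PU.1 and PAR bZIP sites. Median GC was 46.6% at the centre and 43.6% beside it, and its part in these differences was not tested.

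**Figure D5:**
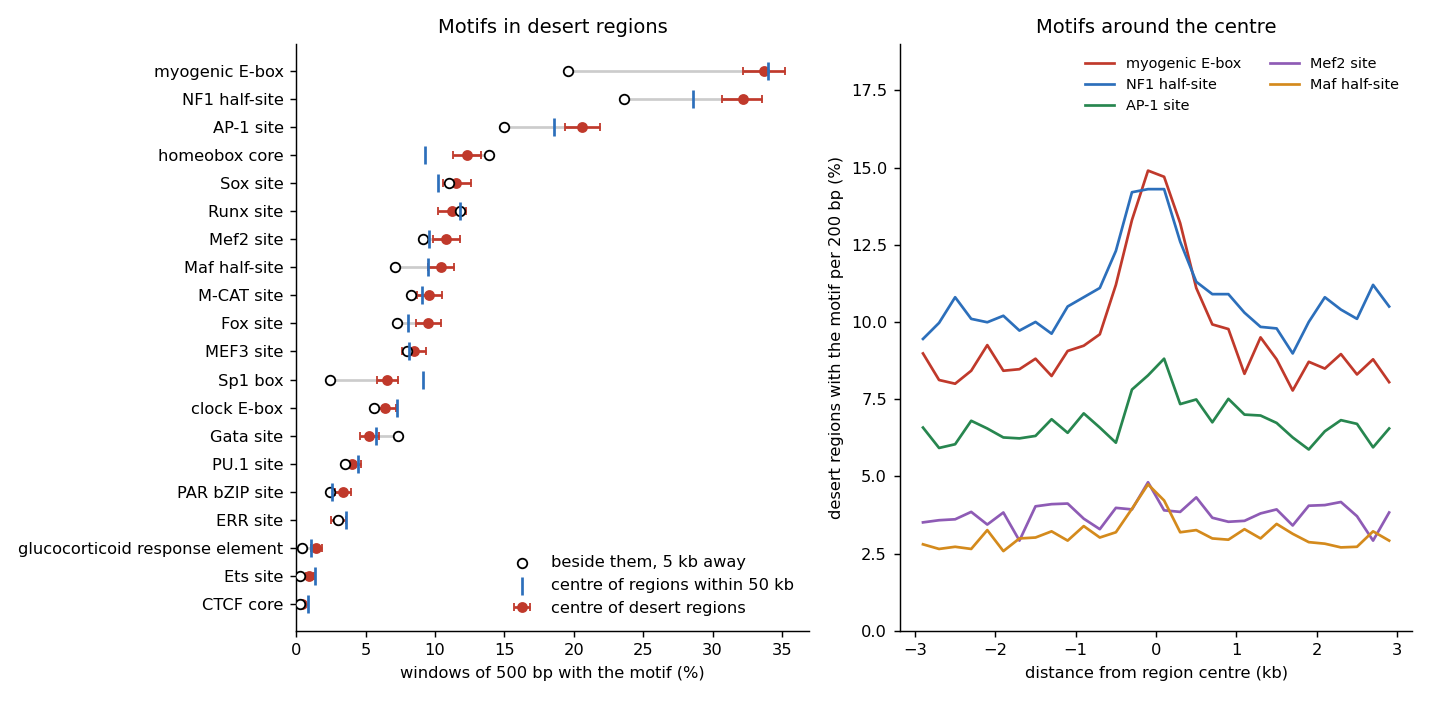
On the left, percentage of 500 bp windows with each motif at the centre of gene desert regions (red, with 95% exact intervals), 5 kb beside them (open circles) and at the centre of regions between genes within 50 kb (blue marks), and on the right, percentage of gene desert regions with a motif in each 200 bp bin by distance from the region centre (kb). The E-box reaches 14.9% per bin at the centre and the NF1 half-site 14.3%, while the Mef2 site stays between 2.92% and 4.81% throughout.

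Around the region centre the shares of several motifs were higher than farther out, as a description with no test. The share of regions with an E-box per 200 bp was 14.9% and 14.7% in the 2 bins at the centre and between 7.78% and 9.25% at 1700 to 2900 bp on both sides. The Maf half-site was at 4.74% and 4.22% in the central bins and between 2.58% and 3.26% at those distances, and the AP-1 site was at 8.27% and 8.81% and between 5.87% and 6.82%. Regions with a glucocorticoid response element numbered 59, of which 9 also held a Maf peak, beside 9.23% of all gene desert regions. The element was found in 2.39% of regions with a Maf peak and 1.35% of those without, with no test. The element is shown in 35 bases, in capitals, for regions in gaps beside Mef2c, Runx1, Vegfa, Nfia and Tshz3, together with the region nearest to Mkln1, which has a Maf peak. These 6 were chosen after the matches were seen.
Cetn3 to Mef2c, chr13:82559790-82559824: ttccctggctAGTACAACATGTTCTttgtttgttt
Runx1 to Setd4, chr16:93072195-93072229: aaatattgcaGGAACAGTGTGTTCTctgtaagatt
1600014C23Rik to Vegfa, chr17:45798399-45798433: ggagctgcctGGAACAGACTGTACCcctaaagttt
Nfia to Tm2d1, chr4:98319066-98319100: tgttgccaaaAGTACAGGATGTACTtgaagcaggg
Zfp507 to Tshz3, chr7:36262491-36262525: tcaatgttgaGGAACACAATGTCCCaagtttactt
Klf14 to Mkln1, chr6:31345607-31345641: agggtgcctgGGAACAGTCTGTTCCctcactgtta
The region beside Mef2c lies 776706 bp from the nearest start, that of Cetn3, and the region nearest to Runx1 lies 246 kb from it. A match to these letters is a description of the sequence and was not tested for binding.

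Against regions between genes within 50 kb, the centres of gene desert regions differed in 6 of 20 motifs (Fisher's exact test with Benjamini-Hochberg adjustment). The NF1 half-site was found in 32.2% against 28.6% (odds ratio 1.19, adjusted p = 0.00104, Fisher's exact test), the homeobox core TAATTA in 12.3% against 9.26%, the AP-1 site in 20.6% against 18.6% and the Fox site in 9.5% against 8.03%. The Sp1 box was less frequent, in 6.55% against 9.13%, and so was the CTCF core, in 0.393% against 0.818%. The gene desert centres were poorer in GC, with a median of 46.6% against 48.8%. Within 5 bins of GC only the NF1 half-site passed (odds ratio 1.18, adjusted p = 0.0074, exact conditional test), and with 200 bp windows it did not (odds ratio 1.11, adjusted p = 0.245, Fisher's exact test). Within those GC bins the homeobox core (odds ratio 1.11, adjusted p = 0.21) and the Sp1 box (odds ratio 0.978, adjusted p = 0.892) did not pass the exact conditional test. The E-box was about as frequent in both, at 33.7% and 34%, and TGCTGAC at 10.4% and 9.5%, neither of which passed the test. Nor did the glucocorticoid response element, at 1.45% and 1.08% (adjusted p = 0.198, Fisher's exact test).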

How the data were processed

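Chromatin from muscle nuclei was immunoprecipitated for Maf (2 samples) and H3K27ac (2 samples). Per the labels and the submitters' processing notes, reads were handled with bcl2fastq 2.17, FastQC, Bowtie2 2.3.2, Picard 2.10.3 and HOMER on mm10/GRCm38. The study names a false discovery rate limit for its Maf peaks. Other peak caller settings, the use of input and the order of the lists are not given in the sources used here. The deposited lists have 6 columns with a score of 1 on every line and hold no counts, so depth and peak height are unknown, and the 2 inputs were not used here.

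H3K27ac lists were joined on 21 chromosomes and placed by the region centre against the basic GENCODE M21 annotation (Python 3.11.15, pandas 2.3.3, SciPy 1.17.1). Regions overlapped a Maf peak when they shared at least 1 bp. Shares were compared by two-sided Fisher's exact test with Benjamini-Hochberg adjustment over 5 tests, and 20 motifs by exact McNemar test (the larger p of the 2 sides 5 kb away) or Fisher's exact test, adjusted over 20. Scripts were tested on simulated data. Adjusted p under 0.05 passed.

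The regions, gene lists and motifs were chosen with earlier results of these data known. Genes were named by rule: those flanking the 12 gaps with the most regions, those nearest to the first 15 regions in the Maf replicate 2 list, to regions with a Maf replicate 1 peak, to the 10 longest and the 10 farthest, noncoding genes at regions with a Maf peak, microRNA genes within 1 kb, listed genes that flank a region, and genes at the limits. Exceptions are stated. Alternatives varied the distance, shared bases, overlap, annotation, windows, length, GC, replicate block and the replicates left out.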

Additional observations from a re-analysis of the deposited data

How the results depend on the processing

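Of 67 alternative values for the 7 comparisons, 47 were counted as unchanged. For shares of regions or peaks this meant the same direction and the same side of the threshold. For numbers of motifs it meant a number near that of the report, whichever motifs were called. The CpG-island-like share stayed lower in gene deserts in each alternative run, with odds ratios from 0.332 to 0.525, and 8 to 13 motifs differed between the centre and the sequence beside it, against 10 in the report.

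The odds ratio of 1.00 for a Maf peak in gene desert regions against regions between genes fell just below 1 with at least 50% shared bases (0.994), 5′ gene ends as starts (0.971), distance from the nearest edge (0.994) and the full annotation (0.997), and none of these passed the test. It ranged from 0.71 to 1 when 1 replicate was left out, and the value of 0.71 came without Maf replicate 2. With the replicate block, which pairs H3K27ac and Maf lists of the same number, it was 0.99 (adjusted p = 1, exact conditional test), and against regions inside genes it was 1.11 (adjusted p = 0.173). Chromatin was split between both antibodies in the study's methods, but the labels do not say that a shared number marks the same animals. Stratified by length, the latter odds ratio was 1.25 and passed.

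For TGCTGAC at Maf peaks the odds ratio of 1.01 became 0.964 over 100 kb and 0.965 with the full annotation, and ranged from 0.983 to 1.56 when 1 replicate was left out, the highest without Maf replicate 2. The noncoding start share over 100 kb gave 0.776 and passed.

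The 6 motifs that differed from regions between genes became 2 with 200 bp windows, 3 each with 5′ gene ends, at most 50% soft-masked bases, the nearest edge or the full annotation, 1 within 5 bins of GC, and 3 to 4 when 1 H3K27ac replicate was left out, with 3 without replicate 2. The cause was not tested. With 200 bp windows the NF1 half-site was also lost. The CTCF core was called in 0 of 10 alternatives and the AP-1 and Fox sites in 2 of 10 each. The nearest edge, full annotation and GC alternatives were chosen after seeing the data. Depth limits every share, since regions missed by shallow sequencing cannot be counted in lists without read numbers.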
